A study of Mus musculus with 12 samples.

Results

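Transcripts of 9 surface antigens by which haematopoietic stem and progenitor cells are sorted and subdivided were followed across 4 mouse genotypes. The antigens are Ly6a (Sca-1), Kit, Cd34, Slamf1 (CD150), Cd48, Procr (EPCR), Cd93, Thy1 and Cd27. They were listed by symbol, with earlier results of these data known, and all 9 were found among the 19463 genes of the count tables. All 9 also passed the filter on low counts that left 12221 genes for testing.

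The cells were LSK cells, blood progenitors gated as negative for lineage antigens and positive for Sca-1 and Kit, sorted singly from livers of C57BL/6J fetuses at embryonic day 18.5. Double mutant fetuses, homozygous both for Pcna K164R and for the Rev1 null allele, gave 4 plates. Rev1 knockout fetuses with wild-type Pcna gave 3 plates, Pcna K164R homozygotes with intact Rev1 gave 2, and wild type (WT) fetuses gave 3. Rev1 is a translesion DNA polymerase, and K164R replaces the lysine of the replication clamp Pcna that is ubiquitinated at stalled forks. Both alleles are in the germline, so every cell type of the fetus carries them, and how many fetuses were pooled for a plate is not given in the sources used here.

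As background, Sca-1 is a GPI-anchored protein of the Ly6 family and Kit is the receptor for stem cell factor, and together they define the LSK gate. Within that gate, stem cells carry CD150 and EPCR and lack CD48, whereas multipotent progenitors gain CD48 and, on the lymphoid side, Flt3 and CD27. Sca-1 is also inducible by interferon, and CD34 and CD93 are carried by fetal stem cells and by many progenitors. In the erythroid branch Sca-1 and CD34 are lost early, and Kit is kept until later.

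Counts are of unique molecular identifiers (UMIs), random tags that mark single captured mRNA molecules at their 3′ end. Wells reaching 1000 UMIs, not counting the ERCC spike-in RNAs, were summed per plate, which kept 3088 of 4608 wells and between 212938 and 11617420 UMIs a plate. Levels are in CPM, UMIs scaled to a common library total, after TMM scaling, and fold changes are from edgeR's quasi-likelihood test over all 12 plates, with genotype and sort day as terms and Benjamini-Hochberg adjustment over all tested genes at 0.05. The plates were sorted on 3 days. Double mutant replicates 1 and 2 shared day 1 with both Pcna K164R plates and WT replicate 1, double mutant replicate 3 shared day 2 with Rev1 knockout replicate 1, and double mutant replicate 4 shared day 3 with Rev1 knockout replicates 2 and 3 and WT replicates 2 and 3. No label says that plates of a genotype came from separate fetuses, so p-values describe plate-to-plate spread, which may be technical. No flow cell carried both double mutant and WT plates, so flow cell and this contrast cannot be told apart except through the other genotypes.

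A pair of double mutant plates stood apart. Double mutant replicate 3 kept 82 wells with a median of 1730 UMIs, and held no Ly6a and no Procr UMI and only 5 Thy1 UMIs. Its other antigens also rest on few UMIs, namely 14 of Kit, 14 of Cd34, 12 of Cd93, 7 of Cd48, 3 of Cd27 and 1 of Slamf1. The library labelled double mutant replicate 4 had 13.4 CPM of Rev1, within the 10.5 to 18.4 CPM of the WT plates, whereas double mutant replicates 1 and 2 had 1.33 and 2.50 CPM and the Rev1 knockout plates 1.26 to 5.62 CPM. Replicate 3 had 8.68 CPM, which is 1 Rev1 UMI. The labels do not say which part of Rev1 is deleted, so a 3′ tag may lie outside it, and Pcna RNA does not report on a point mutation. The main counts and calls are given with and without these plates.

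The 9 genes were placed on GRCm38 with the GENCODE vM21 annotation. Cd48 (chr1:171682009-171705258, plus strand) and Slamf1 (chr1:171767127-171801184, plus strand) are neighbours in the cluster of SLAM family genes. Cd34 lies at chr1:194938819-194961279 on the plus strand and overlaps the antisense gene Gm16897. Cd27 lies at chr6:125232622-125237010 on the minus strand and overlaps Vamp1 on the other strand. Ly6a (chr15:74994877-74998031) and Cd93 (chr2:148436640-148443563) are on minus strands, and Kit (chr5:75574916-75656722), Procr (chr2:155751117-155755471) and Thy1 (chr9:44043384-44048579) on plus strands. Whether counting used strand is not given in the sources used here, so reads of Cd34 and Cd27 cannot be told from those of their antisense partners. The last 500 bases of the Ly6a transcript matched Ly6i at 86.7% identity over 502 bases, so Ly6a counts could include misplaced reads of a paralog. Shorter stretches in the ends of Slamf1 and Cd27 matched Acsl1, at 96.4% over 56 bases and 96.2% over 53 bases. On the same strand, Cd48 overlaps Gm37010 and Cd27 overlaps Mir8113.

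Promoter sequence from RefSeq (GRCm38.p6) was matched for 6 of the 9 genes, namely Kit, Cd34, Slamf1, Cd48, Procr and Cd27. Those of Cd34 and Cd27 are shown because these genes moved together across plates (Spearman's rho 0.87 over 12 plates, a description) and both fell in the double mutant against the Rev1 knockout. Each is the 250 bases before the start site, and capitals mark the ETS core GGAAG on either strand.
Cd34 (chr1:194938571-194938820, plus strand): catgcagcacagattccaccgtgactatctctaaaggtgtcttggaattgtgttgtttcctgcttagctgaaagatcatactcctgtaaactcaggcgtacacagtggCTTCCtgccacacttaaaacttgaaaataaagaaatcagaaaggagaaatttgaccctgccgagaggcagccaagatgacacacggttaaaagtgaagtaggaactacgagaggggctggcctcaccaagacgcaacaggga
Cd27 (chr6:125237028-125237277, minus strand): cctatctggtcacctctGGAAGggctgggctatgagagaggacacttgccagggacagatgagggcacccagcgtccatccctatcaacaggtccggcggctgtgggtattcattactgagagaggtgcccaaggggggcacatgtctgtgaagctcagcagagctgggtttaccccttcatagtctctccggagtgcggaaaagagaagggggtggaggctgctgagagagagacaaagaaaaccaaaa
Each of these promoters held 1 ETS core, as did 64.1% of the 32851 promoters of this length. The RUNX core TGTGGT, the GATA motif AGATAA and the gamma-activated motif TTCNNNGAA, searched on both strands, had no match in either window. Of all promoters 14.1% held the RUNX core, 9.99% the GATA motif and 7.02% the gamma-activated motif.

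Against WT, the double mutant had less Ly6a and Cd93 RNA and more Thy1 RNA. Of the 9 antigens, 2 fell and 1 rose, where 4.21% of all tested genes changed, with 2.41% lower and 1.80% higher. All 3 calls ended with flow cell in place of sort day, with read counts in place of UMIs, without double mutant replicate 4, and without replicates 3 and 4 together. The share of all genes called moved as well, to 0.0987% without replicate 4, 16.2% without replicate 3, 0.569% without both, 0% with flow cell and 0.00698% from read counts. The median log2 fold change of the 9 was -0.82, beside -0.04 for all tested genes. In TMM-scaled CPM, 5 antigens (Ly6a, Kit, Procr, Cd93 and Cd27) on every double mutant plate were below every WT plate and 2 (Slamf1 and Thy1) above. Of tested genes, 11.0% and 4.75% did not overlap in these directions. Double mutant replicate 3 entered this with 0 Ly6a, 0 Procr and 1 Slamf1 UMI. These are under its floor of 3 UMIs, which was 14.1 CPM before TMM scaling. Without this scaling its Slamf1 level of 4.70 CPM was below WT replicate 2, at 5.21 CPM. A lower level in such sums can reflect fewer cells of a type or less RNA per cell, and these cannot be told apart.

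**Figure D1:**
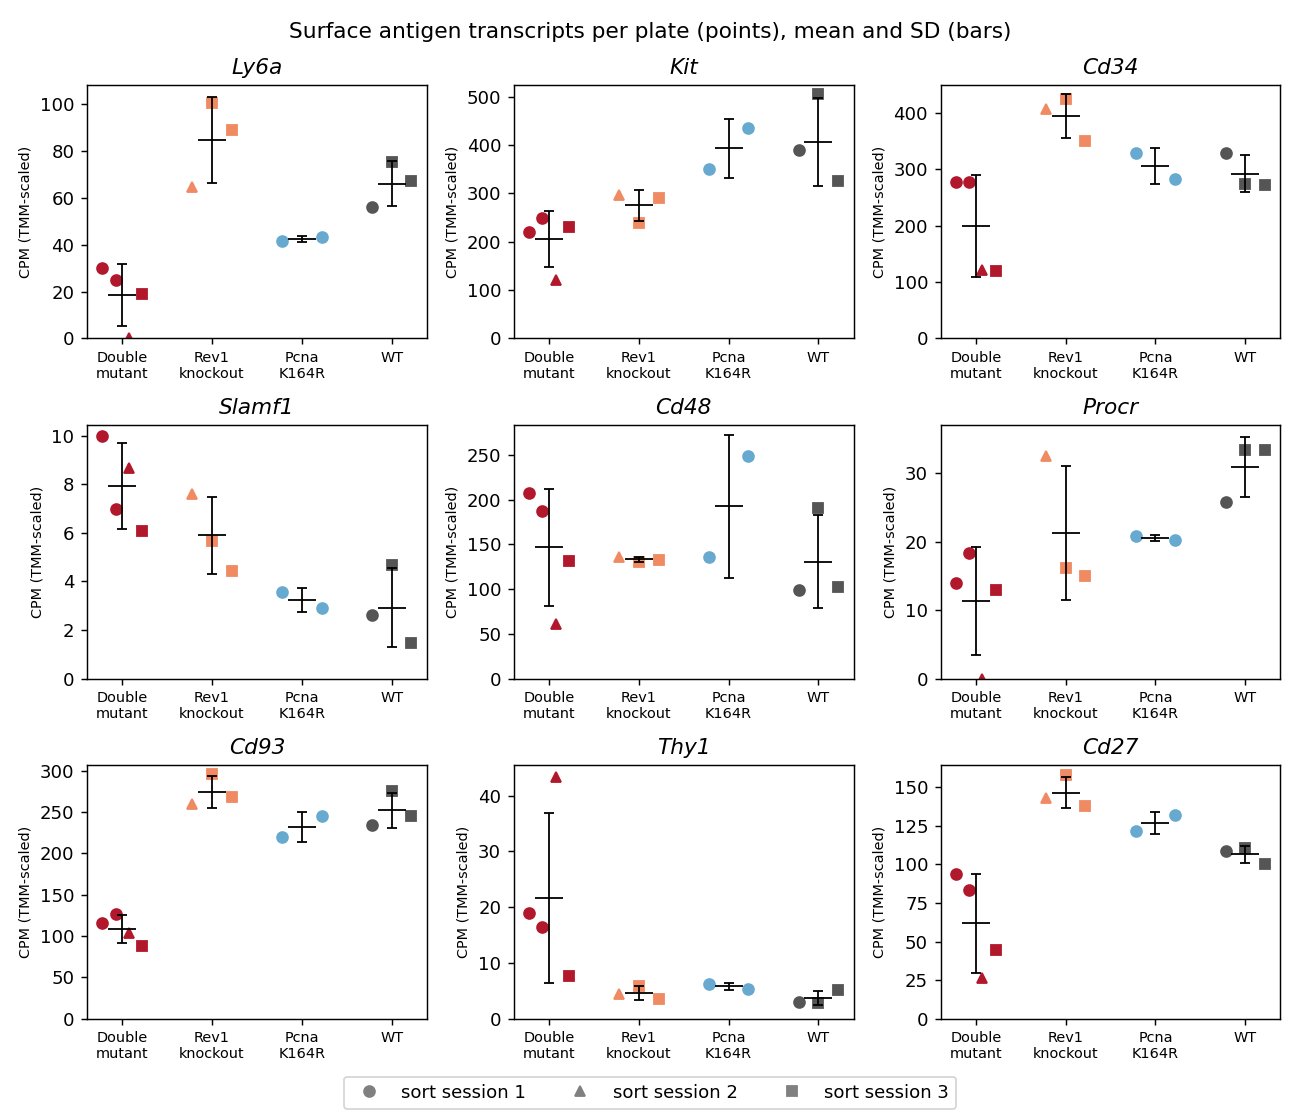
TMM-scaled CPM of the 9 antigens on each plate (points, shaped by sort day), with the mean and SD of each genotype (bars, n = 4, 3, 2 and 3 plates). Double mutant plates lie lowest for Ly6a and Cd93 and highest for Thy1, and genotypes overlap for Cd48.

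Ly6a encodes the positive gate antigen Sca-1. Its level was 30.2, 24.9, 0 and 19.1 CPM on double mutant replicates 1 to 4, 64.7, 101 and 88.9 CPM on the Rev1 knockout plates, 41.5 and 43.5 CPM on the Pcna K164R plates, and 56.0, 75.3 and 67.2 CPM on the WT plates. Every double mutant plate was below all others, both Pcna K164R plates lay between, and Rev1 knockout and WT plates overlapped. The double mutant averaged 18.5 ± 13.2 CPM against 66.1 ± 9.69 CPM in WT (SD, n = 4 and 3), a log2 fold change of -1.47 ± 0.26 (SE, edgeR adjusted p = 0.0159). Without double mutant replicate 4 it was -1.19 (adjusted p = 0.198), without replicate 3 it was -1.38 (adjusted p = 0.00466) and without both -1.01 (adjusted p = 0.0595), and the call was also lost without double mutant replicate 2 or WT replicate 2. Within sort days it was -1.02 on day 1 and -1.88 on day 3. Day 1 has 1 WT plate and day 3 has 1 double mutant plate, replicate 4, so no p is given for either.

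Kit, the receptor for stem cell factor and the other positive gate antigen, had 219, 249, 122 and 231 CPM on the double mutant plates. The Rev1 knockout plates had 297, 239 and 291 CPM, the Pcna K164R plates 349 and 436 CPM, and the WT plates 390, 505 and 325 CPM. No double mutant plate reached the lowest WT plate, but the range overlapped that of the Rev1 knockout. The difference from WT, a log2 fold change of -0.92 ± 0.25, missed the threshold (edgeR adjusted p = 0.0558), and without double mutant replicate 3 it passed (-0.78, adjusted p = 0.0213).

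Slamf1, the SLAM family receptor that marks stem cells, was a low-count gene. It had 10.01, 6.97, 8.68 and 6.08 CPM on the double mutant plates, from 113, 67, 1 and 15 UMIs. The Rev1 knockout plates had 7.60, 5.68 and 4.44 CPM, the Pcna K164R plates 3.58 and 2.89 CPM, and the WT plates 2.63, 4.69 and 1.45 CPM, the last from 4 UMIs. After TMM scaling all double mutant plates were above all WT plates and overlapped the Rev1 knockout plates. Before this scaling the 1 UMI of double mutant replicate 3 was 4.70 CPM, below the 5.21 CPM of WT replicate 2. The log2 fold change against WT of 1.34 ± 0.47 did not pass (edgeR adjusted p = 0.121).

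Cd48, the SLAM family protein gained by multipotent progenitors, had 208, 187, 60.8 and 132 CPM on the double mutant plates. The Rev1 knockout plates lay at 136, 131 and 133 CPM, the Pcna K164R plates at 136 and 249 CPM, and the WT plates at 99.5, 191 and 102 CPM. All genotypes overlapped, and the difference from WT of 0.25 ± 0.37 on the log2 scale did not pass (edgeR adjusted p = 0.751). Its sign turned to -0.34 without WT replicate 1 and to -0.14 on sort day 3 alone.

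Procr encodes the endothelial protein C receptor, which marks the most primitive cells of fetal liver. It had 13.9, 18.4, 0 and 13.0 CPM on the double mutant plates, from 157, 177, 0 and 32 UMIs. The Rev1 knockout plates had 32.5, 16.2 and 15 CPM, the Pcna K164R plates 20.8 and 20.2 CPM, and the WT plates 25.8, 33.4 and 33.4 CPM. Double mutant plates were all below WT plates, but replicate 3 had 0 UMIs. Its floor of 3 UMIs was 14.1 CPM before division by its TMM factor of 0.549, so how far it lay below is not known. The log2 fold change was -1.11 ± 0.32 without passing (edgeR adjusted p = 0.0690). Without double mutant replicate 3 it was -0.96 and passed (adjusted p = 0.0180).

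Cd93, a C-type lectin-like receptor of early progenitors and endothelium, had the smallest SE of the 9 in the fit against WT. It had 116, 127, 104 and 88.0 CPM on the double mutant plates, 260, 297 and 268 CPM on the Rev1 knockout plates, 220 and 245 CPM on the Pcna K164R plates, and 235, 276 and 246 CPM on the WT plates. The highest double mutant plate was below the lowest plate of every other genotype, and the WT plates overlapped those of both single mutants, which did not overlap each other. Its mean was 109 ± 16.7 CPM in the double mutant and 252 ± 21.5 CPM in WT (SD, n = 4 and 3), a log2 fold change of -1.23 ± 0.20 (SE, edgeR adjusted p = 0.0106). Among the 12 fits that each left out a plate, the call was lost only without double mutant replicate 4 (-1.01, adjusted p = 0.119). Without replicate 3 it was -1.23 (adjusted p = 0.00361), and without both -0.94 (adjusted p = 0.0525). It was -0.94 on sort day 1 and -1.55 on day 3, each with a single plate in 1 arm, so no p is given.

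Thy1, a GPI-anchored protein carried at a low level by stem cells and at a high level by T cells, went the other way. The double mutant plates had 19.0, 16.4, 43.4 and 7.71 CPM, from 214, 158, 5 and 19 UMIs. The Rev1 knockout plates had 4.41, 5.89 and 3.52 CPM, the Pcna K164R plates 6.28 and 5.39 CPM, and the WT plates 3.03, 2.81 and 5.08 CPM. All double mutant plates were above the 8 others, among which both Pcna K164R plates were above the WT plates and the Rev1 knockout overlapped both. The log2 fold change against WT was 2.09 ± 0.51 (edgeR adjusted p = 0.0414). It fell short of the threshold in 10 of the 12 fits that left out a plate, with 2.78 without double mutant replicate 4 (adjusted p = 0.0803) and 2.55 without replicates 3 and 4 (adjusted p = 0.0525), and passed without replicate 3, at 1.88 (adjusted p = 0.0183). It was 2.55 on sort day 1 and 0.99 on day 3, each with a single plate in 1 arm, so no p is given. Of the T cell genes, Cd3e had at most 1 UMI on any plate, but Cd8a had 18 UMIs on double mutant replicate 3, the plate with the highest Thy1, against 2 to 11 UMIs on the others. The 11 T and innate lymphoid markers in the files summed to 46.2 to 243 CPM on double mutant plates, 55.0 to 89.0 CPM on Rev1 knockout plates, 58.1 to 69.2 CPM on Pcna K164R plates and 49.3 to 183 CPM on WT plates, with 8 of 11 at 0 on double mutant replicate 3. Their part in the level of Thy1 was not tested.

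Cd34, a sialomucin of progenitors, was split within the double mutant. It had 277, 277, 122 and 120 CPM on the double mutant plates, 407, 425 and 350 CPM on the Rev1 knockout plates, 328 and 283 CPM on the Pcna K164R plates, and 330, 273 and 272 CPM on the WT plates. Double mutant replicates 1 and 2 lay within the WT range, and replicates 3 and 4 below it. The log2 fold change of -0.76 ± 0.23 did not pass (edgeR adjusted p = 0.0781).

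Cd27, the TNF receptor family member of lymphoid-primed progenitors, showed a like split at 93.6, 83.3, 26.0 and 44.2 CPM on the double mutant plates. These came from 1057, 801, 3 and 109 UMIs, so replicate 3 was at its floor of 3 UMIs. The Rev1 knockout plates had 143, 158 and 138 CPM, the Pcna K164R plates 122 and 132 CPM, and the WT plates 108, 111 and 100.2 CPM. Every double mutant plate was below every WT plate, and the log2 fold change was -0.82 ± 0.24 (edgeR adjusted p = 0.0713, not past the threshold). Both Cd34 and Cd27 passed without double mutant replicate 3, at -0.69 (adjusted p = 0.0439) and -0.72 (adjusted p = 0.0380).

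The number of calls moved with the plates. Without double mutant replicate 4 none of the 9 antigens passed, and without replicate 3 there were 7 calls, beside 0.0987% and 16.2% of tested genes. Leaving out Rev1 knockout replicate 1 also gave 7, beside 15.9% of tested genes, since these plates alone make up sort day 2. At an unadjusted p under 0.05, 8 of 9 differed in the fit to all plates, and DESeq2 called the same number, 8 of 9, where it called 10.4% of the genes it tested.

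**Figure D2:**
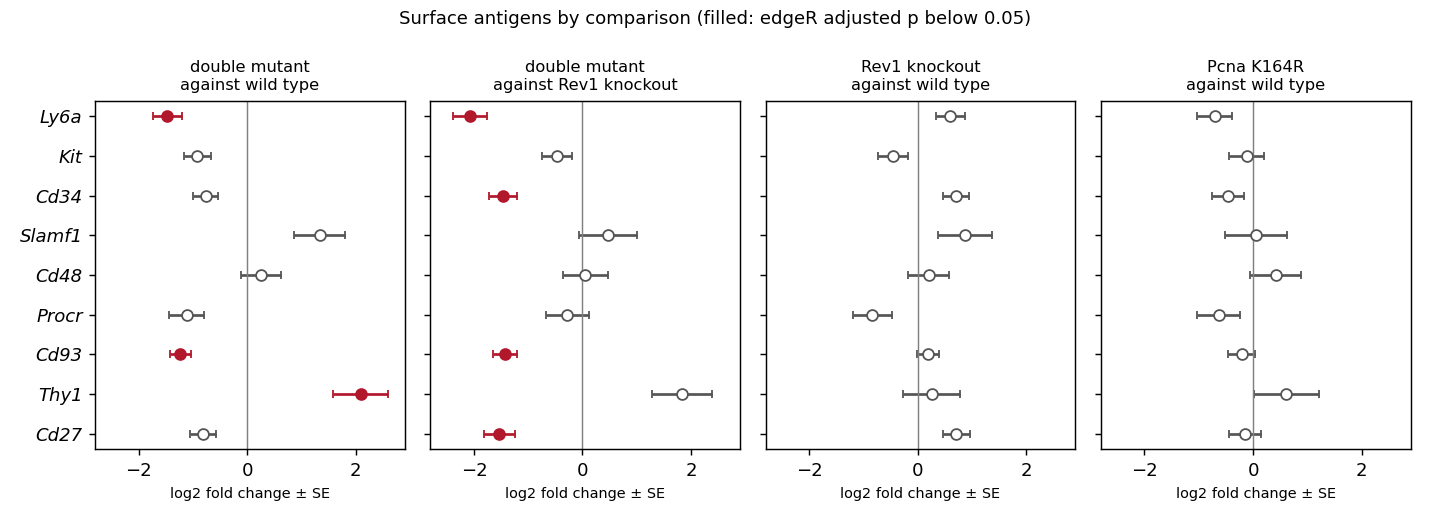
Log2 fold change ± SE of each antigen in 4 comparisons, from edgeR's quasi-likelihood test, filled where the adjusted p was below 0.05. Filled points are Ly6a, Cd93 and Thy1 against WT and Ly6a, Cd34, Cd93 and Cd27 against the Rev1 knockout.

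Against the Rev1 knockout, 4 of the 9 antigens fell in the double mutant and none rose, where 1.75% of all tested genes changed, 1.09% fell and 0.663% rose. The 4 were Ly6a, at -2.07 ± 0.32 (edgeR adjusted p = 0.0140), Cd93, at -1.42 ± 0.22 (adjusted p = 0.0140), Cd34, at -1.47 ± 0.26 (adjusted p = 0.0237), and Cd27, at -1.53 ± 0.28 (adjusted p = 0.0245), as log2 fold changes. These 4 were also the antigens with every double mutant plate below every Rev1 knockout plate, against 11.5% of tested genes, and Thy1 was the 1 with every plate above, against 5.82%. Thy1 differed by 1.83 ± 0.56 and did not pass (adjusted p = 0.113). Kit, at -0.46, Slamf1, at 0.47, Procr, at -0.28, and Cd48, at 0.05, did not pass either. Without double mutant replicate 4 the values of Ly6a, Cd93, Cd34 and Cd27 were -1.71, -1.16, -1.18 and -1.20 and none passed, and none passed without Rev1 knockout replicate 2. Without replicate 3 all 4 passed, at -1.94, -1.47, -1.36 and -1.37, and without replicates 3 and 4 none did, at -1.45, -1.08, -0.77 and -0.79. No antigen passed with flow cell in place of sort day or from read counts. DESeq2 called 5, where it called 6.84% of the genes it tested.

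No antigen changed in the other comparisons by edgeR. For the Rev1 knockout against WT, log2 fold changes ran between -0.84 for Procr and 0.87 for Slamf1, and 4 of 9 had an unadjusted p under 0.05. By edgeR 0% of tested genes changed here, and DESeq2 called 0 antigens and 0.852% of its genes. Kit was lower on every Rev1 knockout plate than on every WT plate and Cd34 and Cd27 were higher, where 5.49% of tested genes lay below and 6.1% above.

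For Pcna K164R against WT, log2 fold changes ran between -0.71 for Ly6a and 0.61 for Thy1, and 1 of 9 had an unadjusted p under 0.05. Again 0% of tested genes changed by edgeR, and DESeq2 called 0 antigens and 0.0207% of its genes. Ly6a and Procr lay below and Thy1 and Cd27 above on both Pcna K164R plates, where 11.9% of tested genes lay below and 12.2% above.

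The double mutant against Pcna K164R ranged between -1.02 for Cd93 and 1.48 for Thy1 on the log2 scale, with 6 of 9 at an unadjusted p under 0.05. Here edgeR called 0.0409% of tested genes, and DESeq2 called 3 antigens and 1.79% of its genes. On every double mutant plate 6 antigens were below and 2 above every Pcna K164R plate, against 10.9% and 4.12% of tested genes. The interaction, which asks whether the double mutant differs from the sum of both single mutants, ranged between -1.38 for Cd27 and 1.22 for Thy1, with 4 of 9 at an unadjusted p under 0.05. For it edgeR called 0% of tested genes, and DESeq2 called 3 antigens and 0.573% of its genes. Comparisons with WT share the WT plates, and those of the double mutant share its plates.

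A list of 43 further measured antigens used to subdivide progenitors had 6 members lower and 2 higher in the double mutant than in WT. Of all tested genes, 2.41% were lower and 1.80% higher. The counts of the list were 0 and 0 without double mutant replicate 4, 11 and 3 without replicate 3, and 3 and 0 without both. In these fits 0.0987%, 16.2% and 0.569% of all tested genes were called. The median log2 fold change of the list was -0.54, beside -0.04 for all tested genes. Flt3, the cytokine receptor of lymphoid-primed progenitors, fell by 2.17 ± 0.27 on the log2 scale (edgeR adjusted p = 0.00368), to 49.7 ± 22.03 CPM against 235 ± 25 CPM in WT (SD, n = 4 and 3). The chemokine receptor Cxcr4 fell by 1.65 ± 0.26 (adjusted p = 0.0106), to 30.1 ± 8.43 CPM against 96.9 ± 15.8 CPM in WT. The transferrin receptor Tfrc, high on erythroid precursors, rose by 1.73 ± 0.28 (adjusted p = 0.0106).

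Antigens that a lineage gate removes were found on all plates. The 16 in the files summed to 58.9 to 590 CPM on double mutant plates and 49.3 to 97.7 CPM on WT plates. On Rev1 knockout plates they summed to 41.3 to 80.3 CPM, and on Pcna K164R plates to 51.4 to 55.6 CPM. The 590 CPM were those of double mutant replicate 3, from 68 UMIs. Of the 7 antigens of this list that were tested, 1 rose and 1 fell, and neither call held without double mutant replicate 4. Beside this, 1.80% of all tested genes rose and 2.41% fell. Cd4 fell by 2.22 ± 0.36 on the log2 scale (edgeR adjusted p = 0.0106), with 3.80 ± 3.25 CPM in the double mutant and 11.8 ± 2.08 CPM in WT (SD, n = 4 and 3). Ly6g, of neutrophils, had no UMI on any plate, but other neutrophil markers were found. The 7 neutrophil markers in the files summed to 14.7 to 255 CPM on double mutant plates and 4.35 to 2465 CPM on WT plates. The highest sum was that of WT replicate 3, from 6789 UMIs. Rev1 knockout plates had 2.89 to 671 CPM of them, and Pcna K164R plates 80.5 to 221 CPM.

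Relatives and partners of the 9 antigens were read from lists of their own. Of the other Ly6 family genes tested, none of 3 changed against WT (Ly6c2, Ly6c1 and Ly6e, at -0.62, -1.26 and -0.19), and neither did any of the 4 other SLAM family genes, with Ly9 at 0.76 and Cd84 at -0.44. The 9 other SLAM family genes in the files summed to 1180 CPM on double mutant replicate 3, from 136 UMIs. Double mutant replicates 1, 2 and 4 had 56.8, 53.5 and 47.4 CPM, and the WT plates 88.9 to 97.7 CPM. None of 10 ligands and signalling partners of the antigens changed, with F2r at 0.63 and Stat5b at -0.33. Of 25 interferon-stimulated genes, which are set beside Ly6a for its known inducibility, 14 fell and none rose, with a median of -1.71. Beside this, 2.41% of all tested genes fell and 1.80% rose. Of these 25, 1 fell without double mutant replicate 4 (median -1.37), 20 without replicate 3 (median -1.94), 5 without both (median -1.46), and 0 with flow cell as the term or from read counts. Ifi44 fell by 3.51 ± 0.39 (edgeR adjusted p = 0.00218) and Ifit1 fell by 3.07 ± 0.42 (adjusted p = 0.00700). The summed level of this list was 237 to 512 CPM in double mutant plates, 1200.5 to 1760.1 CPM in Rev1 knockout plates, 596 to 644 CPM in Pcna K164R plates and 813 to 1203 CPM in WT plates, in the same order of genotypes as the means of Ly6a. The part of interferon signalling in the level of Ly6a was not tested.

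Markers of cell types that the gate could hold moved with genotype as well. For this and the lists below, 1.80% of all tested genes rose and 2.41% fell. Of 15 tested erythroid markers 10 rose and none fell in the double mutant against WT, with a median of 2.22 on the log2 scale. Of the 15, 0 rose without double mutant replicate 4 (median 1.41), 12 without replicate 3 (median 2.01), 1 without both (median 1.08), and 0 with flow cell as the term or from read counts. The summed list ran between 1085 and 3017 CPM on double mutant plates and 697 and 1218 CPM on WT plates. Of 12 stem cell markers outside the 9 antigens 6 fell, among them Hlf, a transcription factor of stem cells, by 1.54 ± 0.20 (edgeR adjusted p = 0.00455), and of 10 lymphoid markers 4 fell, among them Satb1 by 2.23 ± 0.36 (adjusted p = 0.0106). Single markers fell among granulocyte and monocyte genes (Gfi1, 1 of 12), megakaryocyte genes (Plek, 1 of 5) and mast cell and basophil genes (Mcpt4, 1 of 9). Without double mutant replicate 4, 1 stem cell marker and 0 lymphoid markers fell, and none of the 3 single markers did; without replicates 3 and 4 the counts were 2 and 2. In the fit to all plates, none of the tested T and innate lymphoid, B lineage, macrophage, hepatocyte, endothelial and neutrophil markers passed.

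To set the antigens beside erythroid content, wells in which the erythroid list made up at least 0.2% of UMIs were separated, a threshold chosen after the data were seen. Such wells were 20.7%, 27.6%, 8.54% and 46.7% of kept wells on double mutant replicates 1 to 4. They were 1.22%, 1.88% and 8.64% on the Rev1 knockout plates, 12.4% and 11.4% on the Pcna K164R plates, and 10.8%, 7.21% and 5.26% on the WT plates. On the 8 plates with at least 20 such wells, and in CPM without TMM scaling, all 9 antigens were lower in them than in the other wells of the same plate, on 8 of 8 plates. The median ratio was 0.836 for Kit and 0.228 for Cd48, and it was 0.116 for Ly6a, 0.113 for Thy1, 0.0708 for Slamf1, 0.0595 for Cd34, 0.0563 for Cd93, 0.0520 for Procr and 0.0478 for Cd27. Kit was nearest to level between the well classes. Slamf1 and Thy1 rest on few UMIs and varied between plates, with ratios of 0 to 0.939 and 0 to 0.765, and the wells rich in erythroid RNA held 0 to 4 Slamf1 UMIs a plate. Wells were sorted by their own erythroid RNA, and no test over wells was made. The share of all genes lower in these wells was not computed, so the count of antigens has no background. The wells rich in erythroid RNA were also deeper on each of these plates except WT replicate 2. Their median was 36362 UMIs against 14021 in the other wells of WT replicate 1, and 5509.5 against 7689 on WT replicate 2.

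**Figure D3:**
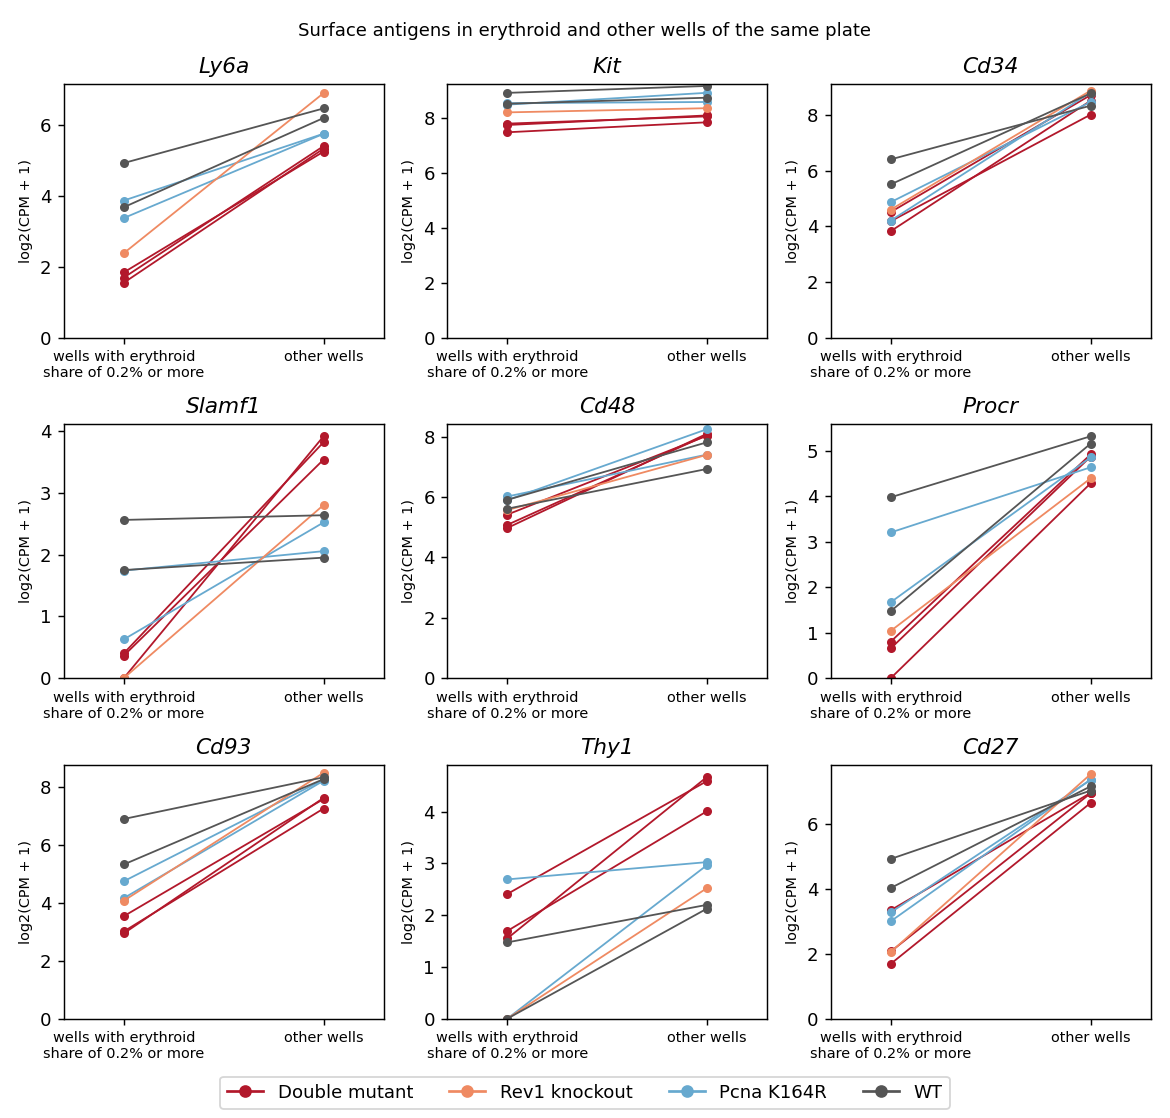
Antigen level, as log2(CPM + 1) without TMM scaling, in wells with at least 0.2% erythroid UMIs and in the other wells of the same plate, joined by a line per plate and coloured by genotype (8 plates with at least 20 such wells). Every line goes up to the right, with the shallowest lines for Kit.

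With these wells left out, 1 of 9 antigens passed in the double mutant against WT, where 0.808% of tested genes did. Thy1 kept its call at 2.48 ± 0.43 (edgeR adjusted p = 0.0261), with 27.4 ± 14.9 CPM in double mutant plates and 4.09 ± 1.47 CPM in WT plates (SD, n = 4 and 3), TMM-scaled within these wells. Slamf1 stood at 1.98 ± 0.43 (adjusted p = 0.0557), from 11.6 ± 1.79 CPM against 3.06 ± 1.60 CPM. Ly6a moved towards 0, from -1.47 to -0.999 ± 0.218 (adjusted p = 0.0555). So did Cd93, from -1.23 to -0.76 ± 0.17 (adjusted p = 0.0672), and Procr, from -1.11 to -0.62 ± 0.31 (adjusted p = 0.391). Cd27 and Cd34 likewise shrank, to -0.33 ± 0.20 and -0.32 ± 0.20 (adjusted p = 0.496 and 0.520). Kit barely moved, to -0.88 ± 0.24 (adjusted p = 0.129). Cd48 rose from 0.25 to 0.71 ± 0.35 without passing (adjusted p = 0.380). Against the Rev1 knockout, Ly6a at -1.58 ± 0.26 (adjusted p = 0.0244) and Cd93 at -0.97 ± 0.20 (adjusted p = 0.0485) still passed. Cd34 and Cd27 did not, with adjusted p of 0.0668 and 0.0833, and 0.683% of tested genes passed. With double mutant replicate 3 left out too, 5 antigens passed against WT (Ly6a, Kit, Slamf1, Cd93 and Thy1) and 4 against the Rev1 knockout. Cd48, at 0.93 against WT, did not (adjusted p = 0.0683). The shares of all tested genes that passed were then 5.06% and 1.63%. With replicate 4 left out instead, Thy1 alone passed against WT, at 3.01 (adjusted p = 0.0470), and none against the Rev1 knockout. These shares were then 0.0839% and 0.0252%.

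**Figure D4:**
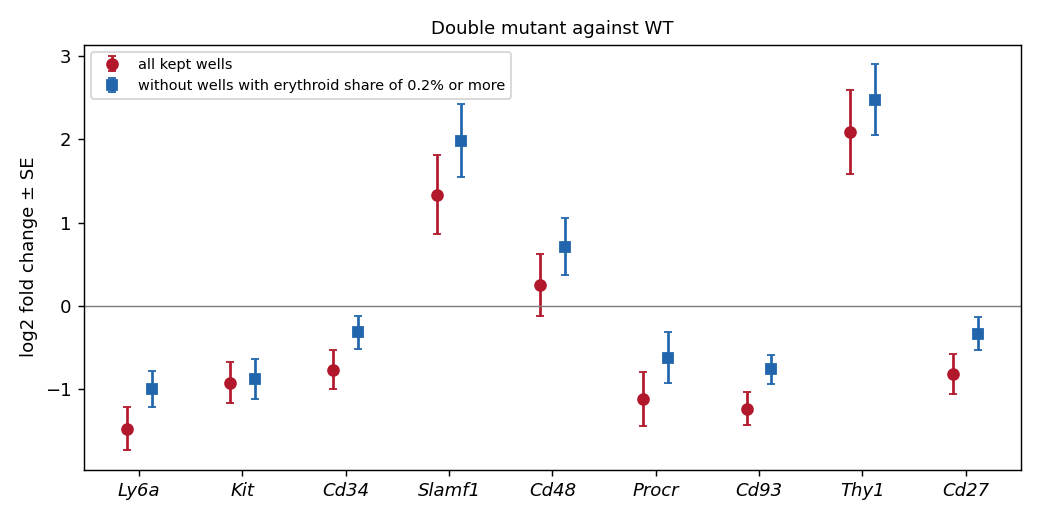
Log2 fold change ± SE of each antigen in the double mutant against WT, from all kept wells and without wells of at least 0.2% erythroid UMIs. Ly6a, Procr, Cd93, Cd27 and Cd34 move towards 0, Kit stays near -0.9, and Slamf1, Cd48 and Thy1 move further up.

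The gates used to split LSK cells were then read at RNA level in single wells, each thinned at random to 2000 UMIs so that depth was equal. This left 31 to 343 wells on the double mutant plates, 200 to 320 on the Rev1 knockout plates, 275 and 339 on the Pcna K164R plates and 162 to 374 on the WT plates. A UMI missing at this depth is not absence of the antigen: before thinning, 42.9%, 39.9%, 0% and 24.3% of double mutant wells held a Ly6a UMI, against 48.8%, 40.3% and 44.4% of WT wells, and after it 6.71%, 2.75%, 0% and 8.99% against 12.03%, 17.1% and 14.2%. Wells with both a Ly6a and a Kit UMI, the positive antigens of the sort, were 3.50%, 0.784%, 0% and 1.12% of the double mutant plates. Their share was 5.94%, 9.50% and 10.7% on the Rev1 knockout plates, 5.90% and 6.18% on the Pcna K164R plates, and 6.68%, 12.2% and 8.64% on the WT plates. Every double mutant plate was below every other plate. The exact Clopper-Pearson 95% intervals, which cover counting error only, were 1.82% to 6.03% for double mutant replicate 1 and 4.37% to 9.71% for WT replicate 1, the nearest plates of these genotypes, and they overlapped. The thinnest plate had 0 of 31 wells, with an interval up to 11.2%. The means were 1.35 ± 1.51% in the double mutant against 9.17 ± 2.79% in WT (SD, n = 4 and 3). The exact two-sided permutation p of 0.0286 was the smallest that 4 against 3 plates allow, and 0.357 after Benjamini-Hochberg adjustment over 25 tests. These permutations exchanged plates across sort days, so sort day was not taken into account. The double mutant mean was 1.80 ± 1.48% without replicate 3 and 1.43 ± 1.84% without replicate 4, where 3 against 3 plates allow no exact p below 0.1.

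The split by SLAM antigens did not separate genotypes. Wells with a Slamf1 UMI and no Cd48 UMI, the pattern of the stem cell gate, were 1.15 ± 0.918% in the double mutant, 1.41 ± 0.428% in the Rev1 knockout, 0.295 ± 0.417% in Pcna K164R and 1.00 ± 0.276% in WT (SD, n = 4, 3, 2 and 3). Wells with Cd48 and no Slamf1 were 21.3 ± 12.3%, 22.05 ± 5.78%, 32.04 ± 8.18% and 21.1 ± 6.05% in the same order. Wells with both were under 1% on every plate, and wells with neither made up 77.3 ± 13.1% in the double mutant and 77.7 ± 6.02% in WT. None of the 25 tests, 5 classes by 5 pairs of genotypes, passed the adjustment, and the number of plates limits what they can show.

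Which antigens were found in the same wells was described with odds ratios pooled over plates, in 2900 thinned wells, without a test because wells of a plate are not replicates. Procr kept company with the stem cell factor Hlf (odds ratio 2.23, 105 wells with both) and with Ly6a (1.70, 29 wells), and was less frequent with Cd48 (0.68) and with the proliferation marker Mki67 (0.64). Cd34 was found with Cd48 (1.80), with Flt3 (1.73) and with Cd93 (1.57). Cd27 was found with Flt3 (1.67), Cd93 (1.53) and Cd34 (1.47). The 2 gate antigens, Ly6a and Kit, had an odds ratio of 1.27 with 188 wells. With Klf1, the erythroid transcription factor, the odds ratios were 0.06 for Cd27, 0.09 for Cd34, 0.10 for Ly6a, 0.18 for Cd93, 0.28 for Cd48 and 0.66 for Kit, and no well held both Procr and Klf1. The ratios moved with depth: at 5000 UMIs, in 2635 wells of 11 plates, Procr with Hlf was 4.51, Cd34 with Cd48, Flt3 and Cd93 was 2.73, 3.67 and 3.20, Cd34 with Cd27 was 3.31, Klf1 with Cd27, Ly6a and Cd93 was 0.11, 0.23 and 0.08, and 5 wells held both Procr and Klf1 (0.14). No pair named here crossed 1 between the 2 depths. Pairs with Slamf1 or Thy1 rest on at most 30 wells with both among the 9 antigens.

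**Figure D5:**
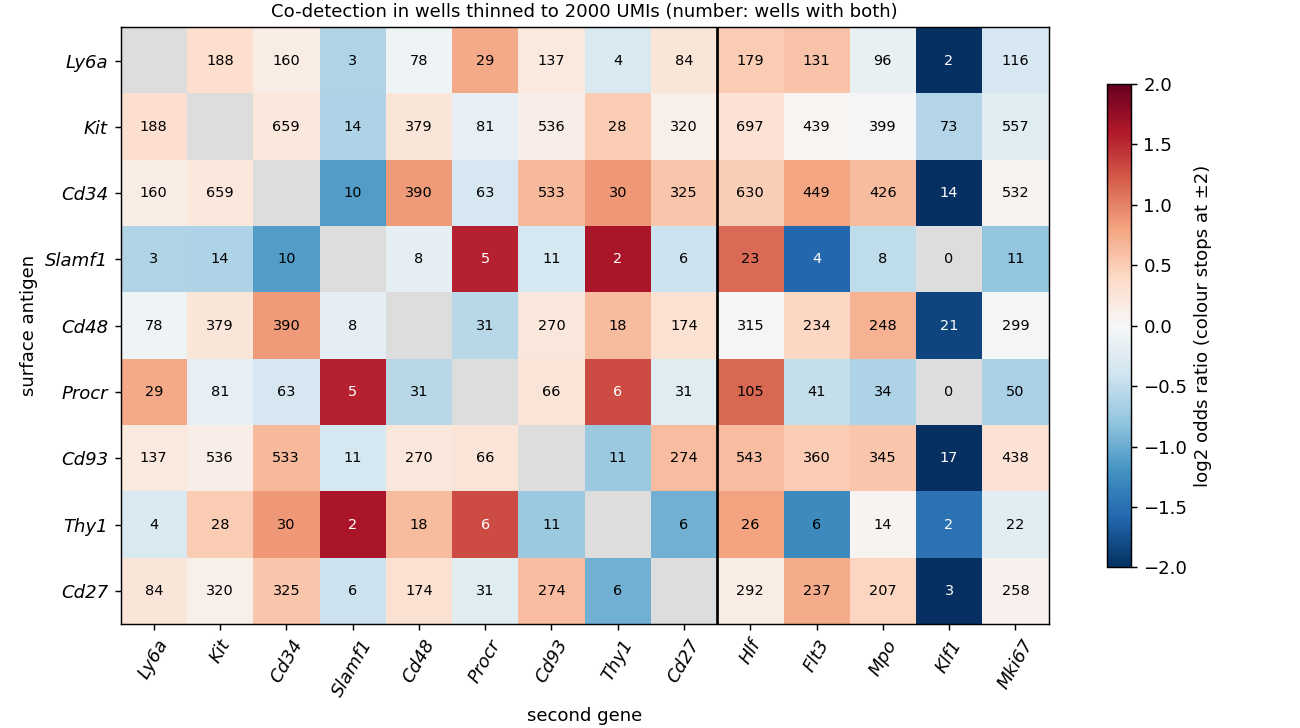
Log2 odds ratio of finding both transcripts in a well thinned to 2000 UMIs, pooled over 12 plates, for each antigen (rows) with the other antigens and 5 further genes (columns), with the number of wells holding both printed in each cell. Grey cells have no ratio, and the Klf1 column is blue throughout except for these.

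The genes whose levels ran most like the antigens over the 12 plates were named by Spearman's rho of log2 CPM, as a description over plates that share genotype and sort day. For Ly6a they were Atp10a, Ifi44 and Oas2 (rho 0.986 each), of which Ifi44 and Oas2 are interferon-stimulated. Those of Cd93 were Satb1, Ifi44 and Rtp4 (0.979 each). For Cd34 they were Ddah2 (0.979), Fam195b and Chad (0.951 each), and for Cd27 Ralgds (0.972), Plek and Zfp62 (0.944 each). Thy1 ran most like Lrrn3 (0.972), Fam124a (0.944) and Clpb (0.930). Ly6a and Cd93 were themselves alike, with a rho of 0.97.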

How the data were processed

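Per the labels' protocols, LSK cells were sorted into oil, libraries were made by SORT-seq and sequenced on a NextSeq 500. BWA 0.7.15 and the build GRCm38 (mm10) appear in the submitters' processing notes; which tool and annotation served for counting is not given in the sources used here. For each plate the authors deposited whole-number UMI counts, whole-number read counts, and expected counts of transcripts, in which UMI counts were corrected for random barcodes drawn more than once, as the values follow the collision formula for 4096 barcodes within 0.005. UMI counts gave the main results, and the other tables were alternatives, the expected counts rounded after summing.

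Kept wells were summed per plate, since cells are not replicates. Replicates of a genotype differed by at least 8.11 in chi-square per degree of freedom, so none was a copy. No doublet caller was run, as cells were sorted singly. Replicate numbers follow deposit order and only name plates. Tests used edgeR 4.0.16 in R 4.3.3 (TMM, filterByExpr, quasi-likelihood F-test, 1 fit of 12 plates), with DESeq2 1.42.0 as an alternative, and exact permutation tests over plates in Python 3.11.15 with numpy 2.4.6. On simulated counts for the double mutant against WT over 12028 genes, with 200 changed by 2 on the log2 scale, 80.4% were recovered and 6.43% of calls were false. Odds ratios are Mantel-Haenszel estimates with plate as stratum.

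The members and the lists were chosen with earlier results of these data known. Named genes are the 9 antigens, Rev1 and Pcna, up to 4 genes a list by smallest p in the double mutant against WT, and the 3 genes most like each called antigen by Spearman's rho of log2 CPM (prior count 2). Alternatives changed scaling, tool, filter, count table, batch term, sort day, well minimum (500 or 5000 UMIs), thinning, erythroid wells and single plates; leaving out double mutant replicates 3 and 4 together, or either one with erythroid wells, was added after the data were seen. Some genes of the lists are not reported here.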

Additional observations from a re-analysis of the deposited data

Results flagged for a closer look

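Wells with both a Slamf1 and a Cd48 UMI made up 0.784% of double mutant replicate 2 and 0% of the other 3 double mutant plates, which set that plate apart from its group. This is 2 wells of 255. Of 14 groups of values examined in this way, 1 stood out, and chance gives about 1 in 20.

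Wells under 1000 UMIs enter no comparison. In them Procr stood at 16.1 CPM in the mutant genotypes, from 5 UMIs, against 14.3 CPM in WT, from 1 UMI, a difference that was not tested and that so few UMIs cannot carry.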

How the results depend on the processing

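The number of antigens called in the double mutant against WT was 3 with all plates, where 4.21% of tested genes were called. By DESeq2 it was 8 (10.4% of tested genes), and with no filter on low counts 6 (6.19%). It was 0 with flow cell in place of sort day (0%), 0 from read counts (0.00698%) and 0 without double mutant replicates 3 and 4 together (0.569%). Without wells of at least 0.2% erythroid UMIs it was 1 (0.808%), which became 5 (5.06%) and 1 (0.0839%) without replicate 3 or 4 as well. Leaving out single plates gave 0 to 7 (0.0987% to 16.2%). Against the Rev1 knockout, 4 calls (1.75% of tested genes) became 0 with flow cell as the term (0.0988%), 0 from read counts (0%) and 1 from wells thinned to 1000 UMIs (1.58%). They became 0 without replicates 3 and 4 (0.0712%), 2 without erythroid wells (0.683%) and 0 without these and replicate 4 (0.0252%). Leaving out single plates gave 0 to 4 (0.0165% to 4.57%). Against Pcna K164R, 0 calls became 3 by DESeq2 (1.79%), 1 with no filter (1.12%) and 0 to 1 without single plates (0% to 0.191%). For the interaction they became 3 by DESeq2 (0.573%) and 3 with no filter (1.25%). The cause was not tested. The terms for flow cell leave few plates per contrast. Each sort day alone has 1 plate in an arm (WT on day 1, double mutant on day 3), so no count of calls is given for it.

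Values that did not pass turned sign as follows. Cd48 against WT was -0.14 on day 3 alone and -0.34 to 0.64 without single plates. Against the Rev1 knockout, Cd48 was -0.0039 by DESeq2, -0.0032 on day 3 and -0.28 to 0.41 without single plates, Kit was 0.0224 and Slamf1 -0.12 from read counts, and Procr was 0.23 without erythroid wells, 0.54 without these and replicate 3, 0.41 without replicates 3 and 4, and -0.60 to 0.0182 without single plates. Thy1 in Pcna K164R against WT ran between -0.0545 and 1.12 without single plates.

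Differences of well shares in percentage points, double mutant minus WT, turned sign too. Slamf1 without Cd48 was -0.0567 at 1000 UMIs, -0.163 at 5000 UMIs and -0.219 to 0.530 without single plates. Cd48 without Slamf1 was -0.102 at 1000 UMIs and -2.62 to 6.23 without single plates. Both together ran between -0.116 and 0.196, and neither was 0.0891 at 1000 UMIs and -6.91 to 2.51. Minus the Rev1 knockout, Slamf1 without Cd48 was 0.494 without erythroid wells and -0.624 to 0.125 without single plates. Cd48 without Slamf1 was 3.81 at 5000 UMIs, 4.67 without erythroid wells and -3.345 to 5.32. Both were 0.0700 at 1000 UMIs, 0.976 at 5000 UMIs and -0.313 to 0.196. Neither was -4.73 at 5000 UMIs, -5.12 without erythroid wells and -5.39 to 4.02.

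No paired analysis was possible because replicate numbers follow deposit order and pair no plates. Wells holding 1% erythroid UMIs were too few for that cut to matter, so the one at 0.2% was added after seeing the data. Slamf1, Procr and Thy1 are limited by depth.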
